A study of Bos grunniens and Bos grunniens x Bos taurus with 2 samples.

Results

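The mitochondrial genome transcripts were the 37 features of the count tables whose identifier is not a nuclear gene identifier of the yak annotation, out of 26961 features in all. They comprised 13 mRNAs, 2 rRNAs and 22 tRNAs. A total of 24 RNA features carry their interval on the mitochondrial sequence in the identifier, and these intervals matched the rRNAs and tRNAs of the yak mitochondrial genome in RefSeq. Testicular tissue of yak (*Bos grunniens*) and of cattle-yak (*Bos grunniens* x *Bos taurus* hybrid), both sexually mature, was frozen, thawed, dissociated by enzymes and captured in droplets, giving 1 library each. The labels give neither a treatment, the number of animals nor the direction of the cross, and name germ cells, although most cells of both libraries carried somatic markers. The counts of both libraries were made on the same feature list. Which species' mitochondrial genome the hybrid carried was not analysed here and cannot be told apart from the library.

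Mitochondrial DNA is transcribed from both strands as long precursors. These are cut, mostly at the tRNAs, into mRNAs for subunits of complexes I, III, IV and ATP synthase, rRNAs for the mitochondrial ribosome, and tRNAs. *ND6* is the mRNA read from the light strand. All other subunits of the respiratory chain, and the proteins that copy, transcribe and process mitochondrial DNA and RNA, are made from nuclear genes. Developing male germ cells remodel their mitochondria as they pass from spermatogonia through meiosis to spermatids.

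The yak library held 60816600 UMIs in 11991 cells and the cattle-yak library 43774841 UMIs in 8930 cells, from 500 UMIs per cell upward, and 24 barcode sequences occurred in both. Mitochondrial features took 13.1% of yak UMIs and 22.2% of cattle-yak UMIs. The median cell stood at 14.5% (quartiles 11.5% and 18.4%) in the yak and at 20.4% (16.6% and 25.5%) in the cattle-yak. A share of 30% or more, the limit the study used to remove cells, was reached by 877 yak cells (7.31%, exact binomial interval 6.85% to 7.79%) and 1310 cattle-yak cells (14.7%, 13.9% to 15.4%). Without a pair of nuclear rRNA features in the denominator, the cattle-yak share of such cells was 32.5%. Those nuclear rRNA features took 7.10% of yak UMIs and 12.7% of cattle-yak UMIs, so they moved with the library in the same direction as the mitochondrial share, and their part in the results was not tested. All intervals are at 95% and cover counting error only, each group is 1 library, and no p-value is given.

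Typed germ cells of the yak, with the type taken from a table of barcodes, numbered 84 spermatogonial stem cells (SSC), 486 spermatogonia (SPG), 72 early and 261 late spermatocytes (early-SPC and late-SPC) and 224 spermatids (SPT). All cells, typed ones included, were clustered without the 37 mitochondrial features and the clusters named from marker genes. Markers did not fully bear out these types, and did not bear out the SSC type. No SSC barcode fell in a germ-like cluster. Of the 84 SSC barcodes, 72 fell in an endothelial (EC-like) cluster, and their summed counts held 1182 CPM (the unit of levels here, a gene's UMIs scaled to all UMIs of its group) of the endothelial gene *PECAM1*. Of the 486 SPG barcodes, 257 fell outside germ-like clusters, with *UCHL1*, a spermatogonial gene, at 345 CPM, against 1546 CPM in those inside. The germ-like clusters of the yak also held untyped cells of much higher depth, named here by the typed cells of the same cluster. They were deep SPG (254 cells, median 18279 UMIs), deep SPC (71, 14871), deep late-SPC (86, 35264) and deep SPT cells (139, 27398). The typed cells behind the names were few for deep SPG (12 SPG and 2 early-SPC), deep late-SPC (25 late-SPC) and deep SPT (12 SPT). Those of deep SPC were 68 early-SPC, 62 late-SPC and 3 SPG. This grouping was chosen after seeing the data. *UCHL1* was highest of the 4 in deep SPG (1557 CPM), the synaptonemal gene *SYCP3* in deep SPC (245 CPM) and the acrosomal gene *ACRV1* in deep SPT cells (1066 CPM).

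The rRNAs were the most abundant mitochondrial features. 12S rRNA, of the small ribosomal subunit (MT 961 to 1917), and 16S rRNA, of the large subunit (MT 1985 to 3555), held ranks 2 and 3 among all 26961 features in both libraries, behind a nuclear rRNA feature. In the yak, 12S rRNA took 32.2% and 16S rRNA 17.4% of mitochondrial UMIs, and in the cattle-yak 36.8% and 31.4%. The 13 mRNAs together took 50.4% and 31.8%. *COX3*, a core subunit of complex IV, was the mRNA with most UMIs in both, at 10.1% and 6.47% of mitochondrial UMIs.

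Divided by feature length, the order was different. A UMI stands for 1 captured molecule whatever its length, so this division raises short features. In the yak, 12S rRNA held 2671612 UMIs per kb, followed by *ND3* with 1036272, *COX3* with 1031725, *ATP6* with 940819 and 16S rRNA with 880998 UMIs per kb. *ND3*, a small subunit of complex I, held 358550 UMIs before the division, against 805777 for *COX3*. In the cattle-yak the order was 12S rRNA (3739643 UMIs per kb), 16S rRNA (1941647), *COX3* (805745), *ND3* (589746) and *COX2* (542023). At the other end, *ND5* (78073 and 61442 UMIs per kb in yak and cattle-yak), *ND4L* (71104 and 29343) and *ND6* (7265 and 14799) were the 3 lowest mRNAs in both. *ATP8* and *ATP6* overlap by 40 bases, *ND5* and *ND6* by 17, *ND4L* and *ND4* by 7, and *ATP6* and *COX3* by 1. Reads in those stretches cannot be given to 1 gene, and whether counting used the strand is not given in the sources used here. UMIs count molecules as captured, so a transcript captured poorly reads low.

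The 22 tRNAs were almost absent from these counts, which the labels describe as made from polyadenylated RNA. They held 951 UMIs in the yak and 777 in the cattle-yak, or 0.0120% and 0.00799% of mitochondrial UMIs. The tRNA at MT 5978 to 6051 was highest in both, with 161 and 121 UMIs. The tRNAs at MT 6151 to 6218 and MT 14973 to 15041 had no UMI in either library. The floor used for a count of 0 is 3 UMIs per library, a one-sided limit. No tRNA reached the 100 summed counts needed for comparison within a class.

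The mitochondrial share differed widely between cell groups of the same library. Among the 23 yak groups of at least 50 cells it ran from 0.720% in deep SPT cells to 56.8% in a smooth muscle-like (MC-like) cluster led by *GRIP2* and *RYR2*, with a median group at 13.7%. Among the 15 cattle-yak groups it ran from 14.8% in EC-like cells to 65.8% in the *GRIP2*/*RYR2* MC-like cluster, and the median group stood at 20.3%. Immune and vascular classes of the yak lay close together. EC-like cells were at 11.3%, lymphatic EC-like cells at 14.9%, T/NK-like cells at 15.7% and macrophage-like cells at 15.99%. Stromal-like cells stood at 13.4% and the other MC-like cells at 20.1%. Counting intervals of these values spanned 0.2 percentage points or less.

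**Figure D1:**
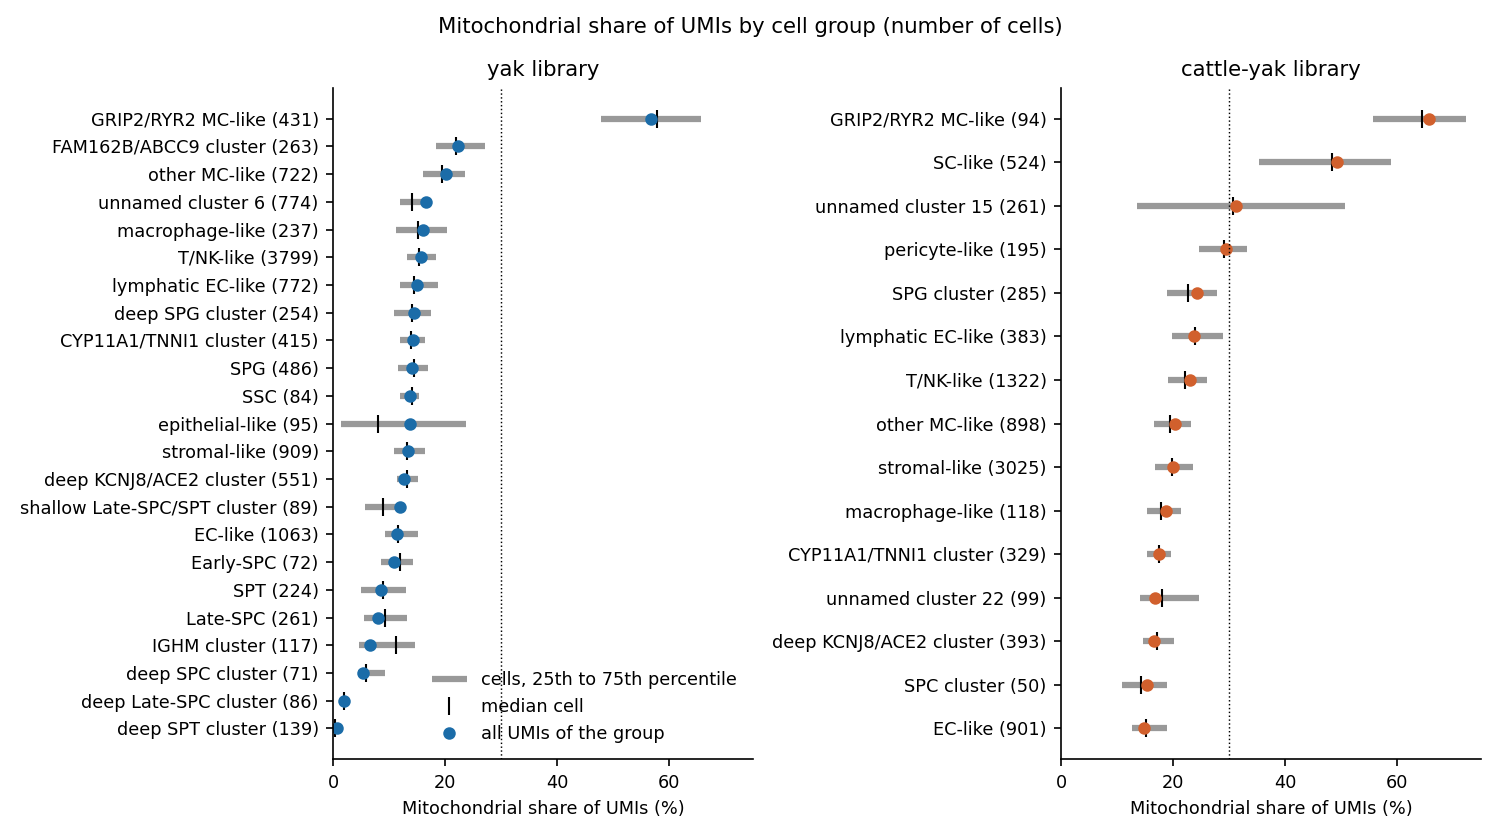
Mitochondrial share of UMIs in percent (x axis) for each group of at least 50 cells (y axis, with its number of cells), yak left and cattle-yak right. Dots give the share of all UMIs of the group, grey bars the quartiles of its cells, ticks the median cell and the dotted line a share of 30%. The *GRIP2*/*RYR2* MC-like cluster is highest in both libraries, at 56.8% and 65.8%, and the deep late-SPC and SPT clusters are lowest in the yak, at 1.94% and 0.720%.

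Shares also moved with depth inside a class. Yak T/NK-like cells below 1000 UMIs had a share of 24.2%, against 15.9% from 1000 to 3000 UMIs, 15.0% from 3000 to 10000 and 12.2% above 10000. EC-like cells stood at 17.9% between 1000 and 3000 UMIs and at 9.75% above 10000 in the yak, and at 21.1% and 12.9% in the cattle-yak. Sertoli cell-like (SC-like) cells of the cattle-yak had 22.6% below 1000 UMIs, 40.3% from 1000 to 3000, 53.0% from 3000 to 10000 and 42.4% above 10000, so their shallowest cells were the lowest. The *GRIP2*/*RYR2* MC-like cells of the yak were high in every bin, at 45.1%, 58.3% and 54.6%.

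Across the typed germ cells of the yak, the mitochondrial share was 13.7% (13.6% to 13.9%) in SSC, 14.1% (14.0% to 14.2%) in SPG, 10.9% (10.8% to 11.0%) in early-SPC, 7.90% (7.82% to 7.97%) in late-SPC and 8.59% (8.49% to 8.70%) in SPT. It was lower in meiotic and postmeiotic types than in spermatogonia, and the intervals of late-SPC and SPT did not overlap. The SSC value is mostly that of cells in the EC-like cluster. No typed cell reached a share of 30%, the limit under which the types were given. In the untyped deep cells the share was lower at every step and covered a far wider range, with 14.3% in deep SPG, 5.35% in deep SPC, 1.94% in deep late-SPC and 0.720% in deep SPT cells. The log2 ratio of the share between neighbours was -1.42, -1.46 and -1.43 along these steps, each with an interval within 0.02 of the value, and -4.31 from deep SPG to deep SPT cells. After thinning each cell to 1000 UMIs, the mean shares were 14.4%, 7.02%, 2.08% and 0.843%, in the same order. Thinning leaves the expected share of a cell unchanged. These means therefore show the effect of equal weight for cells, and cannot show whether the shares depend on depth.

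Genes of other cell types stood higher in typed SPT and late-SPC barcodes than in the deep cells. Typed SPT barcodes, with a median of 906 UMIs, held *MYH11*, of smooth muscle myosin, at 489.6 CPM and *PECAM1* at 121 CPM. In deep SPT cells the same genes stood at 37.4 and 7.89 CPM. Late-SPC barcodes held 426 CPM of *MYH11*, and deep late-SPC cells 89.8 CPM. The origin of these counts, and the part of such RNA in the mitochondrial share of the typed cells, were not tested. The upper depth limit of the study, 2 standard deviations above the mean, left 52 of 254 deep SPG, 35 of 71 deep SPC, 11 of 86 deep late-SPC and 44 of 139 deep SPT cells. Among those left, the shares were 17.6%, 8.59%, 2.48% and 0.868%.

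**Figure D2:**
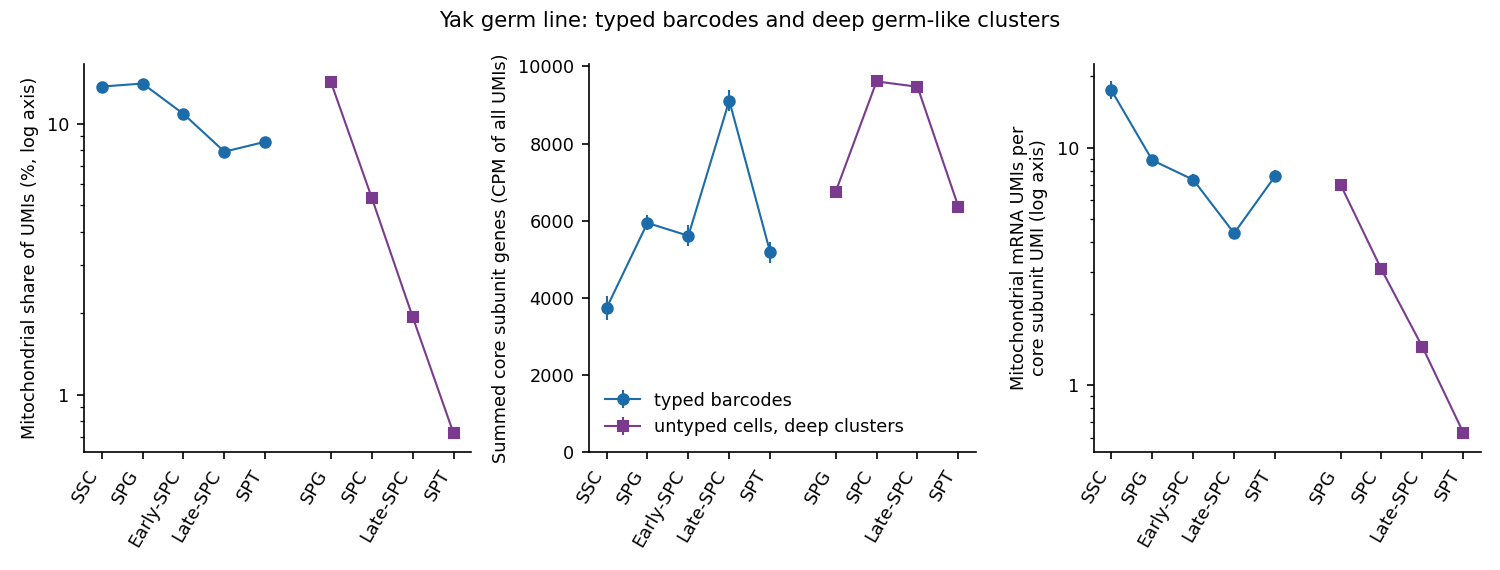
Yak germ line from spermatogonia to spermatids, with typed barcodes as circles and untyped cells of the deep germ-like clusters as squares. The panels give the mitochondrial share of UMIs (%, log axis), the summed counts of 35 nuclear genes for respiratory chain subunits (CPM) and the number of mitochondrial mRNA UMIs per UMI of those genes (log axis), with bars for 95% counting intervals. The share was 14.3% in deep SPG and 0.720% in deep SPT cells, while the summed nuclear genes stood at 6750.1 and 6363 CPM.

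Single features were counted from a 2-fold difference in the log2 ratio of CPM with 1 CPM added to each side, in features with at least 100 summed counts. Ratios printed below for named mitochondrial features are without the added 1 CPM. Between the typed germ cells few mitochondrial features passed. From SSC to SPG none of 14 did, against 26.3% of all features tested. The SSC side of that step is mostly cells of the EC-like cluster. From SPG to early-SPC 2 of 14 were lower, *ND3* and *CYTB*, the complex III subunit. Of all features, 26.5% were lower there and 58.2% passed in either direction. None of 14 passed from early-SPC to late-SPC (66.2% of all features) or from late-SPC to SPT (44.7%). Between the deep groups the counts were larger. From deep SPG to deep SPC cells 7 of 15 passed, all lower. Of all features, 29.1% were lower at that step and 49.5% passed in either direction. From deep SPC to deep late-SPC cells 13 of 14 passed, all lower (24.0% of all features lower, 44.7% in either direction). From deep late-SPC to deep SPT cells 10 of 14 passed, all lower (30.5% of all features lower, 59.2% in either direction). From deep SPG to deep SPT cells all 15 tested were lower, with a median log2 ratio of -3.52, against -0.53 over all features. Of all features, 43.8% were lower between these groups and 76.1% passed in either direction. No mitochondrial feature was 2-fold higher along these steps.

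The features differed in how low they went. Between deep SPG and deep SPT cells, 12S rRNA stood at 73935 and 1787 CPM (-5.37), the lowest log2 ratio of the 15, and 16S rRNA stood at 22099 and 1383 CPM (-4.00). Of the complex I mRNAs, *ND3* stood at 2166 and 363 CPM (-2.58), the ratio nearest to 0. The other complex I mRNAs lay between -3.98 and -3.10, apart from *ND6*, which was near the floor in deep SPT cells (interval -5.39 to -3.41). *ND1* stood at 992 and 115 CPM (-3.11), *ND2* stood at 3484 and 221 CPM (-3.98), *ND4* stood at 4006 and 383 CPM (-3.39), *ND4L* stood at 189.9 and 22.1 CPM (-3.10), *ND5* stood at 1980.3 and 131 CPM (-3.92) and *ND6* stood at 52.1 and 2.63 CPM (-4.31). *CYTB*, the only complex III subunit of this genome, stood at 1539 and 133 CPM (-3.53). Of the complex IV mRNAs, *COX1* stood at 9153 and 495 CPM (-4.21), *COX2* stood at 5722 and 361 CPM (-3.98) and *COX3* stood at 11146 and 1079 CPM (-3.37), so *COX1*, the catalytic subunit, had the lower ratio and *COX3* the higher. For ATP synthase, *ATP6* stood at 6104 and 646 CPM (-3.24) and *ATP8* stood at 706 and 68.4 CPM (-3.37), neighbours that share bases. All ratios are differences in level, on the log2 CPM scale, and compare each feature with itself.

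The make-up of the mitochondrial RNA differed along the same path. 12S rRNA took 51.6% of mitochondrial UMIs in deep SPG, 29.3% in deep SPC, 16.2% in deep late-SPC and 24.8% in deep SPT cells. The mRNAs of complex IV (*COX1*, *COX2* and *COX3*) took 18.2%, 30.7%, 42.6% and 26.9%. *COX3* alone reached 22.6% in deep late-SPC cells, against 7.78% in deep SPG cells. Between deep SPC and deep late-SPC cells *COX3* had the ratio nearest to 0 of the 14 features tested (-0.92 on the log2 CPM scale), and 12S rRNA the one farthest from it (-2.32). The typed late-SPC also held more *COX3* (13.1% of mitochondrial UMIs) than typed SPG (8.09%). *ND3* took 1.51% in deep SPG and 5.05% in deep SPT cells.

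The ratio of 12S to 16S rRNA was highest in spermatogonial clusters in both libraries. Deep SPG cells of the yak had 3.35 UMIs of 12S per UMI of 16S rRNA (3.32 to 3.37), the highest of 23 groups, followed by epithelial-like cells (2.20) and typed SPG (2.09). Typed SPG inside germ-like clusters had 2.31 and those outside 1.83. The lowest ratios of the yak were 1.26 in deep late-SPC and 1.29 in deep SPT cells. In the cattle-yak, the SPG cluster (285 cells led by genes such as *DMRT1*, *UCHL1* at 1999 CPM) had 2.11, followed by SC-like cells with 1.38, and the other 13 groups lay between 0.799 and 1.27. A group of 39 yak cells too small for this order had 2.60. Its leading 10 genes shared 9 with the SC-like cluster of the cattle-yak. Complex I mRNAs were at their lowest in the same spermatogonia, at 8.98% of mitochondrial UMIs in deep SPG cells and 6.26% in the cattle-yak SPG cluster.

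**Figure D3:**
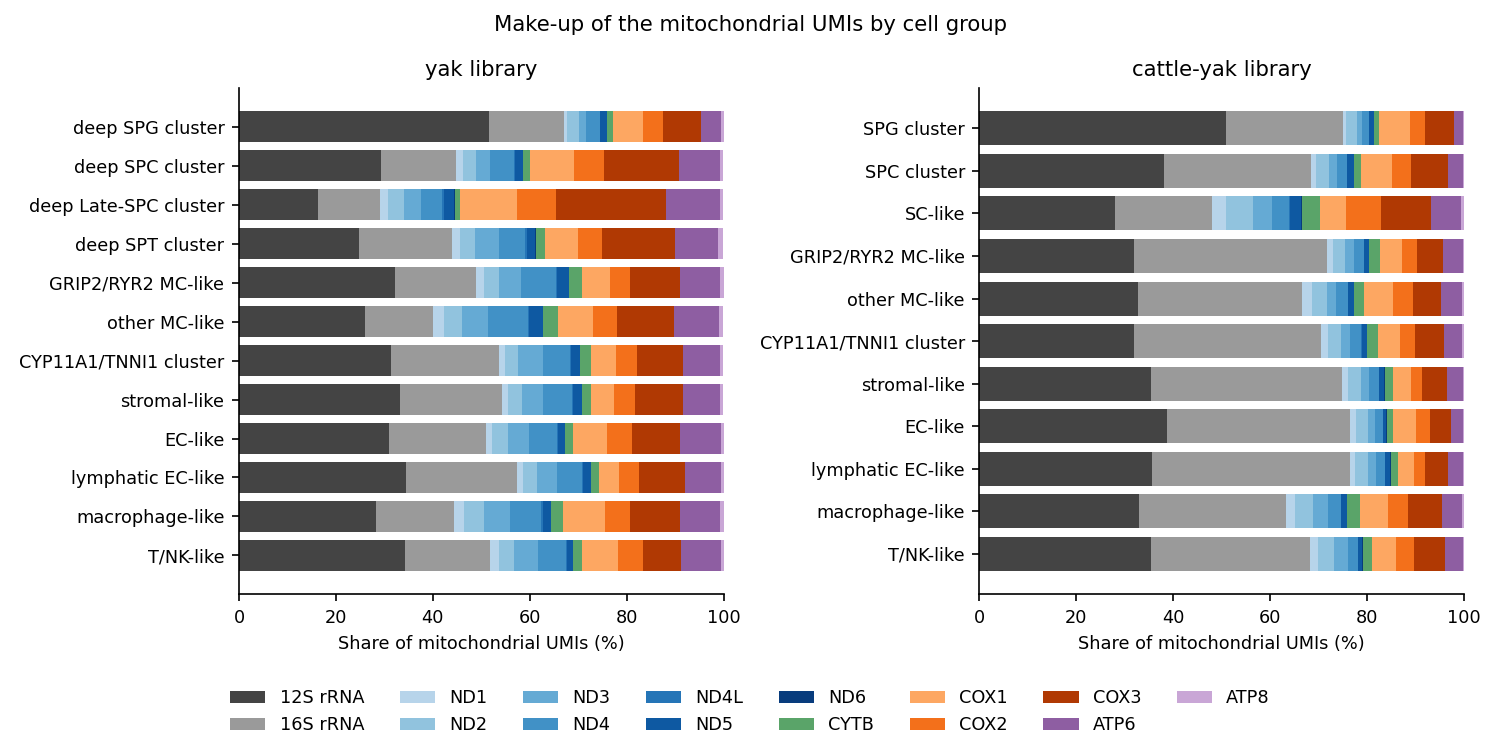
Share of mitochondrial UMIs (%) taken by each rRNA and mRNA, stacked for selected cell groups of the yak (left) and cattle-yak (right). 12S rRNA is widest in the spermatogonial clusters, at 51.6% and 50.9%, and *COX3* in deep late-SPC cells at 22.6%.

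Transfer RNAs differed less than the mRNAs between the ends of the germ line. Deep SPG cells held 9.67 CPM of tRNA (7.16 to 12.8, 49 UMIs) and deep SPT cells 10.00 CPM (7.07 to 13.7, 38 UMIs), while mitochondrial mRNAs stood at 47239 and 4020.1 CPM. The tRNA share of mitochondrial UMIs was therefore 0.00675% in deep SPG and 0.139% in deep SPT cells (0.0983% to 0.191%), and no more than 0.0272% in any other yak group of at least 50 cells. These are few UMIs, spread over 11 tRNAs in deep SPT cells.

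Nuclear genes for subunits of the respiratory chain and ATP synthase were summed from a list of 78, of which 35 were found by symbol. Of complex IV only *COX8A* was among them. Their sum did not follow the mitochondrial share. *NDUFA6* alone held 173, 1161, 2064 and 1260 CPM in the 4 deep groups. Over the 35 genes, the median log2 ratio from deep SPG to deep SPT cells was -0.61, beside -0.53 over all features. The sum was 5944 CPM in typed SPG, 5612 in early-SPC, 9114 in late-SPC and 5184 in SPT. In the deep groups it was 6750.1, 9610.4, 9473 and 6363 CPM. The number of mitochondrial mRNA UMIs per nuclear subunit UMI thus went from 6.998 (6.92 to 7.08) in deep SPG to 3.07, 1.45 and 0.632 (0.619 to 0.645) in deep SPT cells. T/NK-like cells of the yak stood at 21.4 and EC-like cells at 14.6.

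From deep SPG to deep SPT cells 6 of these 35 nuclear genes were 2-fold higher and 14 lower, beside 32.2% higher and 43.8% lower among all features tested, so the count of lower genes was near that background. *NDUFA6*, of complex I, went from 173 to 1259.7 CPM, *ATP5IF1*, the inhibitor of ATP synthase, from 64.8 to 210.4 CPM, and *UQCRFS1*, the iron-sulfur subunit of complex III, from 107 to 339 CPM. *CYC1*, cytochrome c1 of complex III, went from 306 to 14.5 CPM, *SDHC*, of complex II, from 238 to 8.42 CPM, and *ATP5MC3*, of the ATP synthase ring, from 247 to 8.68 CPM. These genes were chosen as the 3 largest differences each way. *COX7B2*, a paralogue of the complex IV gene *COX7B*, was at 53.5 CPM in deep SPG, 403 in deep SPC, 448 in deep late-SPC and 233 CPM in deep SPT cells, against 6.51 CPM in T/NK-like cells. In the cattle-yak it reached 26.3 CPM in the SPG cluster and 61.0 CPM in the SPC cluster of 50 cells. Its highest value there, 103 CPM, was in an unnamed cluster of 261 cells with a mitochondrial share of 31.2%.

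Of 31 nuclear genes for maintenance and expression of mitochondrial DNA, 29 were found and 19 had enough counts between deep SPG and deep SPT cells, of which 5 were 2-fold higher and 9 lower. Both counts were near the shares of all features just given. *TFAM*, which packages mitochondrial DNA and starts its transcription, went from 44.8 to 788 CPM, a log2 ratio of 4.11, after 10.4 CPM in deep SPC and 29.5 CPM in deep late-SPC cells. *FASTKD2*, an RNA-binding protein of mitochondria, stood at 38.3 and 182 CPM. *GRSF1*, of the mitochondrial RNA granules, went from 229.6 to 13.2 CPM, *SSBP1*, which binds single-stranded mitochondrial DNA, from 122 to 7.10 CPM and *HSD17B10*, a subunit of mitochondrial RNase P, from 38.1 to 1.58 CPM. *TRMT10C*, another subunit of that enzyme, was at 24.9 and 77.6 CPM.

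A pair of groups stood out by a high mitochondrial share, and they differed in their nuclear genes. The SC-like cells of the cattle-yak (524 cells, Sertoli cell genes such as *INHA* at 842 CPM) had a share of 49.2% (49.2% to 49.3%), and 424 of them (80.9%) lay at 30% or more, so that 98 cells remained under the depth and share limits, with a share of 20.2%. Their nuclear subunit sum was 10839 CPM over UMIs that were not mitochondrial, the highest of the 15 groups of that library. It was 5502 CPM of all UMIs, against 6333 CPM in the SPG cluster. Within their mitochondrial UMIs, rRNA took 48.0%, the lowest of the 15 groups, and *COX3* 10.4%, the highest. The SC-like name rests on 4 enriched markers of the Sertoli cell list. The 39 yak cells that shared leading genes with this cluster came from a cluster left unnamed, with 2 such markers enriched and 3 needed for a name. These 39 cells had a share of 32.0% over all UMIs but a median of 11.1% per cell, and 7 of the 39 reached 30%. Their nuclear sum was 11328 CPM over UMIs that were not mitochondrial.

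The *GRIP2*/*RYR2* MC-like clusters (431 yak and 94 cattle-yak cells) had shares of 56.8% and 65.8%, with 414 and 91 cells at 30% or more. Their leading 10 genes shared 3 between the libraries. Their nuclear subunit sums were the lowest of each library, at 2537 and 2147 CPM over UMIs that were not mitochondrial, against 7023 and 6734 in the other MC-like cells. Mitochondrial mRNA UMIs per nuclear subunit UMI numbered 264 and 254, compared with 46.5 in SC-like cells and 21.4 and 12.6 in the other MC-like cells. The smooth muscle gene *MYH11* stood at 3023 and 2088 CPM, against 8234 and 6642 CPM. A list of 9 stress genes summed to 43611 and 34305 CPM over UMIs that were not mitochondrial, the highest of each library, and to 5607 in SC-like cells. Depth was 1778 and 1658 UMIs per cell in the median, against 5808 and 5066 in the other MC-like cells. The part of the stress genes' level and of depth in these shares was not tested.

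**Figure D4:**
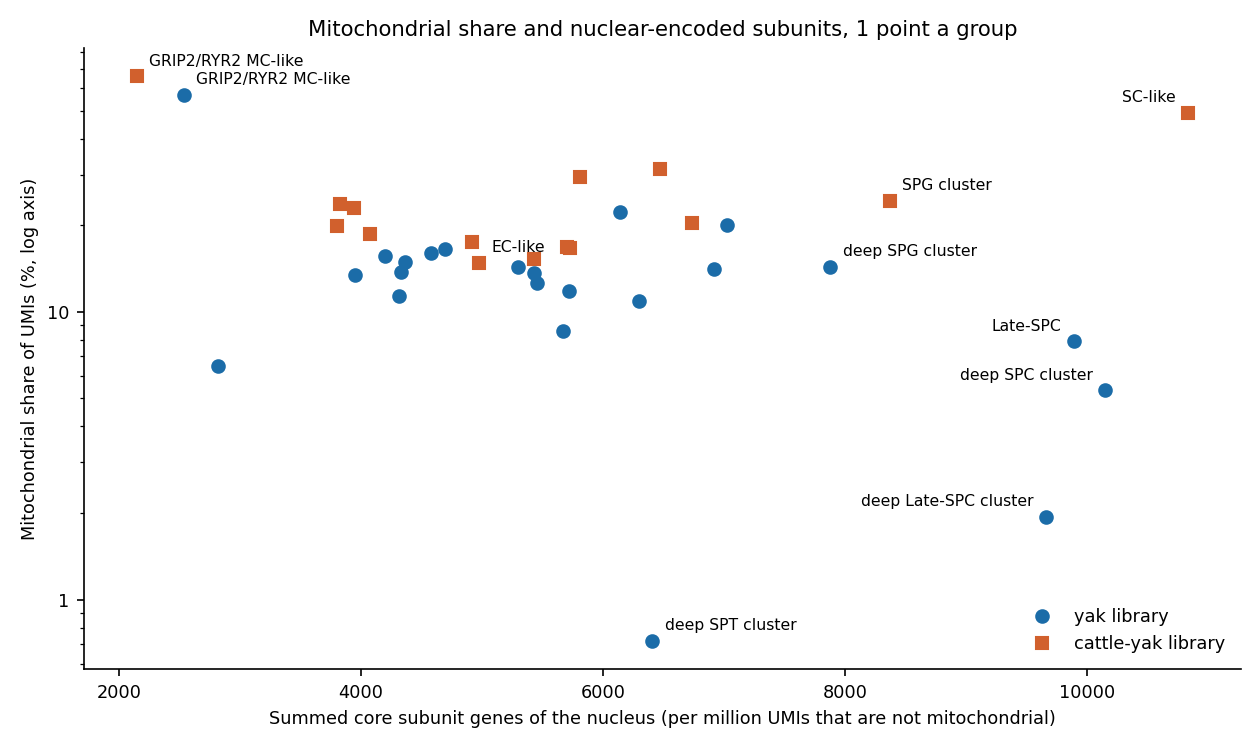
Mitochondrial share of UMIs (%, log axis) against the summed counts of 35 nuclear subunit genes (CPM) over UMIs that are not mitochondrial, 1 point for each group of at least 50 cells, with circles for the yak and squares for the cattle-yak. The *GRIP2*/*RYR2* MC-like clusters lie at the upper left (2537 and 2147), SC-like cells at the upper right (10839) and typed late-SPC, deep SPC and deep late-SPC cells of the yak at the lower right.

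Between the libraries summed over all cells, the rRNAs together differed more than the other mitochondrial features together. Single mRNAs went both ways, with *ND6* at 0.0063% and 0.0179% of all UMIs in yak and cattle-yak, and *ND4* at 0.785% and 0.486%. Mitochondrial features other than rRNAs took 6.59% of all UMIs in the yak and 7.06% in the cattle-yak, whereas the rRNA share of mitochondrial UMIs was 49.6% and 68.2%. Class by class, the log2 ratio of the share (cattle-yak over yak) was 0.66 in lymphatic EC-like, 0.57 in stromal-like, 0.55 in T/NK-like, 0.39 in EC-like and 0.22 in macrophage-like cells, and -0.26 in MC-like cells. The last value was 0.01 without the *GRIP2*/*RYR2* clusters. The same ratio for the rRNAs alone ran from 0.38 in MC-like to 1.08 in lymphatic EC-like cells. For the mRNAs it was below 0 in all 6 classes, from -1.05 in MC-like to -0.05 in T/NK-like cells. Both MC-like values lay outside those of their parts. The rRNA and mRNA ratios were 0.75 and -0.83 without the *GRIP2*/*RYR2* clusters, and 0.76 and -0.64 within them. Nuclear subunit sums over UMIs that were not mitochondrial had log2 ratios of -0.19 to 0.21 in the 6 classes. The nuclear rRNA features moved the same way as the mitochondrial rRNAs in these classes, for example from 13.4% to 22.9% in lymphatic EC-like and from 9.56% to 10.6% in EC-like cells, and their part was not tested.

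Of 15 mitochondrial features tested in each class, those 2-fold higher in the cattle-yak were 16S rRNA and *ND6* in EC-like (2, against 3.34% of all features), macrophage-like (2, 2.11%) and stromal-like cells (2, 1.42%). 16S rRNA alone was so in lymphatic EC-like (1.19% of all features) and T/NK-like cells (1.74%), and *ND6* alone in MC-like cells (1.67%). Those 2-fold lower were *ATP8*, *ATP6*, *ND3*, *ND4L* and *ND4* in EC-like cells (5, against 2.23% of all features). In MC-like cells the same 5 with *COX3* and *ND5* were lower (7, 2.2%). The MC-like calls depended on pooling the *GRIP2*/*RYR2* clusters with the other MC-like cells. The log2 ratio of 16S rRNA was 0.93 pooled, 1.27 without those clusters and 1.46 within them. That of *COX3* was -1.18 pooled, -0.96 without them and -0.69 within them. *ND4L* and *ND4* were lower in macrophage-like cells (3.68% of all features) and *ND4L* in T/NK-like cells (5.93%), and none was in lymphatic EC-like (9.09%) or stromal-like cells (6.61%).

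Several features had the same direction over 8 matched groups, which add the spermatogonial clusters and the *CYP11A1*/*TNNI1* clusters to 6 classes, with MC-like cells taken without the *GRIP2*/*RYR2* clusters. These pairs were chosen after seeing the data and share their 2 libraries, so they are not replicates. The part of the hybrid's mitochondrial sequence, and of its mapping, in these ratios was not tested. The log2 ratio of 16S rRNA lay between 1.09 and 1.5 and that of 12S rRNA between 0.31 and 0.75. *ND4*, a core subunit of complex I, lay between -1.76 and -0.20, *ND4L* between -2.15 and -0.50, *ATP6*, of ATP synthase, between -1.35 and -0.45, and *ATP8* between -1.46 and -0.42. All 4 were below 0 in 8 of 8 groups, but not in the SPC clusters, a pair outside these 8, where *ND4* stood at 0.16, *ND4L* at 0.09, *ATP6* at 0.08 and *ATP8* at 0.13. The SPC pair differed in *SYCP3* level, and its match in stage was not tested. *ND3* was below 0 in 7 of 8, the exception being the spermatogonial clusters at 0.12. *ND1*, *ND2* and *CYTB* had medians of 0.35, 0.33 and 0.36, and *COX1* and *COX2* of 0.08 and -0.17. *ND6* was above 0 in 8 of 8, between 0.59 and 1.61, on small counts (59 UMIs in yak macrophage-like to 1277 in cattle-yak EC-like cells). Within the mRNAs alone, which takes the rRNAs out of the denominator, *ND4* remained below 0 in 8 of 8 groups (-0.93 to -0.56) and *CYTB* was above 0 in 8 of 8 (0.40 to 0.77). The SPC clusters had the same directions on this scale. There *ND4* stood at -0.55, *ND4L* at -0.62, *ATP6* at -0.62, *ATP8* at -0.57 and *CYTB* at 0.91.

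**Figure D5:**
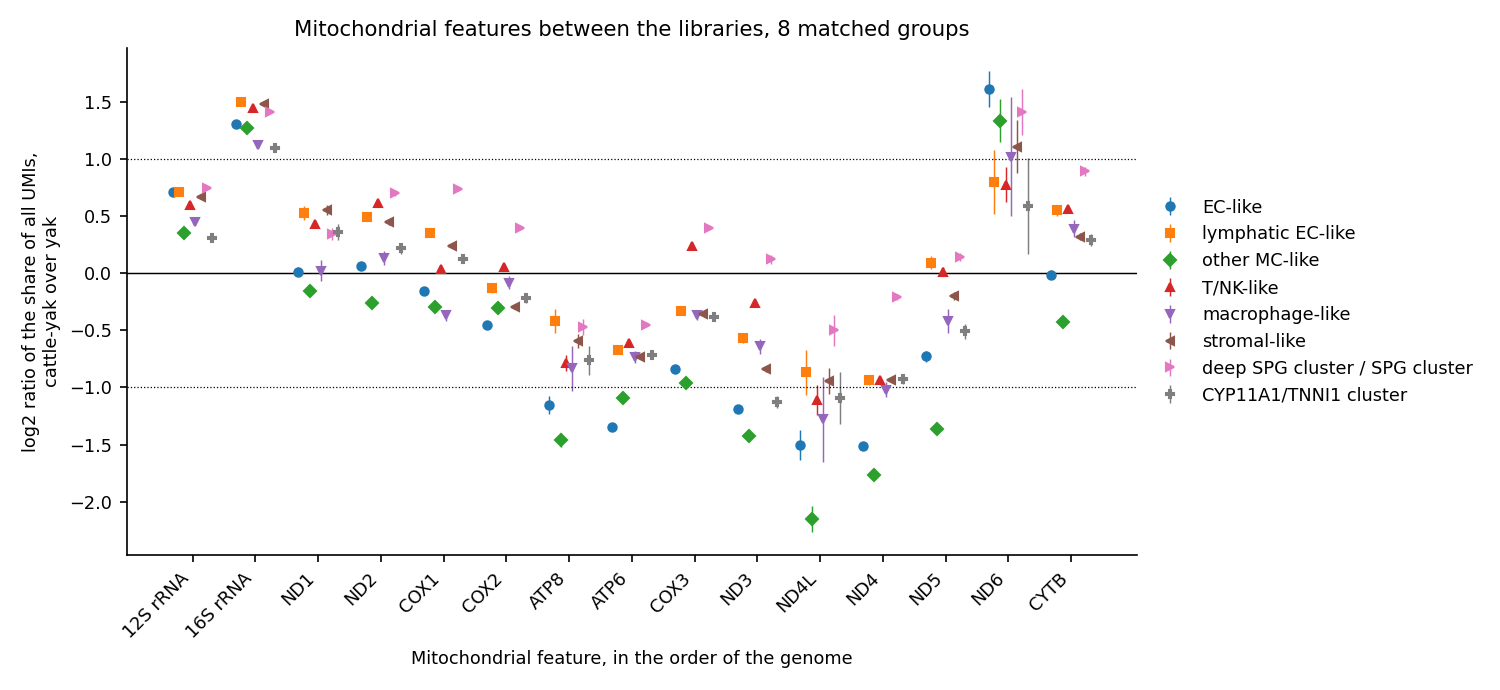
Log2 ratio of each feature's share of all UMIs, cattle-yak over yak (y axis), for 12S and 16S rRNA and the 13 mRNAs in the order of the mitochondrial genome (x axis), 1 symbol for each of 8 matched groups with its 95% counting interval and dotted lines at 2-fold. 16S rRNA is above 1 in all 8 groups, and *ATP8*, *ATP6*, *ND4L* and *ND4* are below 0 in all 8. The SPC clusters, which differed in *SYCP3* level, are not drawn. In them these 4 mRNAs were above 0 as a share of all UMIs and below 0 within the mRNAs.

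Spermatogonial clusters were found in both libraries. Deep SPG cells of the yak and the SPG cluster of the cattle-yak had mitochondrial shares of 14.3% and 24.4%, a log2 ratio of 0.77 (0.76 to 0.77), at median depths of 18279 and 22676 UMIs. Unlike in the 6 classes, the mRNAs together were higher in the cattle-yak, with a log2 ratio of 0.36, and that of the rRNAs was 0.93. In the pair of SPC clusters, which differed in *SYCP3* level and may not be matched in stage, these ratios were 0.71 and 2.13. The difference from the 6 classes was not tested. In the spermatogonial pair, *COX1* had a log2 ratio of 0.74, *ND2* of 0.71, *COX2* of 0.40, *COX3* of 0.40 and *ND1* of 0.34. 16S rRNA went from 22099 to 58899 CPM, *CYTB* from 1539 to 2857 CPM, *ND4* from 4006 to 3477 CPM and *ATP6* from 6104 to 4473 CPM. Nuclear rRNA features were at 4.26% and 4.30% in this pair. The make-up of the spermatogonia differed between the libraries. At resolution 2, clusters with *DLK1* and *SPOCD1* among their leading genes held 97 yak cells (share 11.6%) and 213 cattle-yak cells (24.0%). Those with *CRABP1* held 165 (16.1%) and 67 (25.4%). The part of this make-up in the ratios was not tested. Germ-like clusters of low depth at resolution 2, with *UCHL1* and *ASB9* among their leading genes, had higher shares over all their UMIs. They held 244 yak cells (share 19.3%, median 1137 UMIs) and 173 cattle-yak cells (54.0%, median 1060 UMIs). In the yak, median cells did not differ in this way. The cluster with these leading genes at resolution 1 had cell medians of 15.4% below 1000 UMIs, 13.0% from 1000 to 3000 and 13.2% from 3000 to 10000. All cells of the deep SPG cluster had medians of 14.8% from 3000 to 10000 UMIs and 13.9% above. The cattle-yak SPC cluster (50 cells, *SYCP3* at 1067 CPM) had a share of 15.3%, and deep SPC cells of the yak, with *SYCP3* at 245 CPM, had 5.35%. The 72 early-SPC barcodes of the yak, with *SYCP3* at 1787 CPM, had 10.9%. At resolution 2, a germ-like yak cluster of 103 cells had a share of 10.45%. Its leading genes, such as *RAD51AP2*, *SYCP3* and *GML*, overlapped those of the cattle-yak SPC cluster. Another germ-like yak cluster, of 112 cells with *PIWIL1* among its leading genes, had 5.23%. Ratios of single features were not taken against these clusters. No spermatid cluster was found in the cattle-yak, where *ACRV1* had no more than 0.971 CPM in any group, so the shares of deep late-SPC and SPT cells could not be set beside cattle-yak values.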

How the data were processed

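Testis cells of yak and cattle-yak were captured in droplets, 1 library each. The authors deposited whole-number counts of UMIs per feature and barcode, without normalization, as Cell Ranger wrote them. The deposited feature and barcode lists hold names only. The file headers name Cell Ranger 5.0.0, and the submitters' processing notes name version 2.1.1. All deposited cells were used, before the study's limits (2 standard deviations around mean genes and UMIs, mitochondrial share under 30%), and no doublets were removed. A total of 24 barcode sequences occurred in both libraries and were kept as separate cells. Depth ran from 500 to 170998 UMIs per cell.

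Cells were clustered in scanpy 1.11.5 (Python 3.11.15) on log counts per 10000 without the 37 features and 2 nuclear rRNA features, over 2000 variable genes, 30 components and 15 neighbours (Leiden resolution 1, igraph, seed 0). A cluster took a name with at least 3 markers at a log2 ratio of 1 or more and a UMI in 10% of its cells. It stayed unnamed where another list had more genes among its leading 10. With a lead of under 2 markers, it also stayed unnamed where another list had as many leading genes. Clusters of low depth without a marker among the leading genes stayed unnamed too. Unnamed clusters could thus hold many markers of a list. Yak germ types were the study's own for 1127 barcodes. Counts were summed over groups. Shares had exact binomial, sums exact Poisson and ratios exact conditional intervals at 95%. Of nuclear lists, 35 of 78 subunit, 29 of 31 expression, 4 of 7 isoform and 9 of 12 stress genes were found by symbol. Named were all rRNAs and mRNAs, and nuclear genes with the 3 largest differences each way per list. The members and lists were chosen with earlier results of these data known. The ratio rule was tested on simulated data. Feature lengths came from RefSeq (Bosgru_T2T1.0). No test was possible with 1 sample per group. The alternatives changed cell limits, weights, denominators, thinning, resolution, fold and count minimum. Some settings were added after seeing the data. Sequences were not used here.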

Additional observations from a re-analysis of the deposited data

Results flagged for a closer look

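The log2 ratio of the mitochondrial share between the libraries (cattle-yak over yak) was -0.26 in MC-like cells and above 0 in the other 5 classes, so 1 class moved the opposite way. The shares of MC-like cells were 26.1% in the yak and 21.8% in the cattle-yak. The *GRIP2*/*RYR2* cluster held 431 of 1153 yak and 94 of 992 cattle-yak MC-like cells, and without it the ratio was 0.01. The difference between classes was not tested, since each library is 1 sample.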

How the results depend on the processing

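No paired analysis was possible because each group has 1 sample, and no replicate could be left out. The mitochondrial share was higher in the cattle-yak than in the yak library under all 5 alternatives. It was 14.2% and 18.9% (yak and cattle-yak) in cells within all limits, 15.9% and 23.6% within the depth limits alone, 16.9% and 23.4% with equal weight for cells, 14.1% and 25.4% without nuclear rRNA in the denominator, and 16.8% and 23.3% after thinning. Thinning leaves the expected share of a cell unchanged, so it adds little to equal weight and does not test depth. The rRNA share of mitochondrial UMIs was 50.1% and 71.6% within all limits and 52.1% and 70.8% with equal weight. The median log2 ratio over 6 classes, 0.47, became 0.45 within all limits, 0.49 within the depth limits, 0.40 with equal weight, 0.53 without nuclear rRNA, and 0.54 and 0.45 at resolutions 0.5 and 2. In MC-like cells the ratio turned from -0.26 to 0.0299 within all limits and to 0.0138 without the *GRIP2*/*RYR2* clusters, and the cause was not tested. Cells at a share of 30% or more were 6.58% and 13.8% of those with 1000 UMIs, and 9.35% and 32.5% without nuclear rRNA.

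Summed over the 6 classes, with a feature counted once for each class, 9 calls were higher in the cattle-yak and 15 lower, with 15 features tested per class. The 9 were 16S rRNA in 5 classes and *ND6* in 4. In MC-like cells 16S rRNA passed in the *GRIP2*/*RYR2* clusters and in the other cells, but not in the pooled class. Of all features, 1.19% to 3.34% were higher and 2.2% to 9.09% lower, depending on the class. At a fold of 1.5 the calls were 17 and 32. Between neighbouring germ types 2 calls passed, with 14 features tested per step, beside 26.3% to 66.2% of all features. At a fold of 1.5 it was 14 calls. The shares of all features at a fold of 1.5 are not given here. The nuclear subunit sum, 5061 and 4453 CPM, was 5822 and 5724 over UMIs that were not mitochondrial and 4308 and 3989.9 within all limits. Mitochondrial mRNA UMIs per nuclear subunit UMI went from 13.0 to 16.4 in the yak and from 15.9 to 13.4 in the cattle-yak within all limits, which reversed their order. Depth left every tRNA under 100 counts within each class compared.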

Other observations

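Some cell groups outside the comparisons had mitochondrial shares of their own. In the yak, a cluster of 117 cells with *IGHM* and *MZB1*, genes of antibody-forming cells, had a share of 6.49% over all UMIs and a median of 11.2% per cell, and no cell of it reached 30%. A cluster led by *FAM162B* and *ABCC9*, genes known from pericytes, had 22.2% in the yak (263 cells), and the pericyte-like cluster of the cattle-yak had 29.5% (195 cells, of which 86 reached 30%). The *CYP11A1*/*TNNI1* clusters, which carry a gene of steroid synthesis and a gene of slow muscle, held 14.3% and 17.5%. In these clusters *COX7A1*, a muscle form of a complex IV subunit, stood at 58.8 and 60.7 CPM, above the other MC-like cells at 48.4 and 42.2 CPM. The other isoform genes found were low everywhere, with *COX6A2*, of muscle, at no more than 2.105 CPM (yak other MC-like cells) and *NDUFA4L2* at no more than 6.81 CPM (yak *FAM162B*/*ABCC9* cluster) in groups of at least 50 cells. A cattle-yak cluster of 32 cells with *STAR*, which carries cholesterol into mitochondria, had a share of 32.1%.

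Shares also varied inside single clusters. The unnamed cattle-yak cluster of 261 cells had quartiles of 13.5% and 50.8%, and yak epithelial-like cells of 1.35% and 23.7%.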
